A study of Mus musculus with 4 samples.

Results

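The sirtuins are a family of 7 genes, Sirt1 to Sirt7, and their mRNA was followed here in mouse pancreatic islet cells that had been given either MOTS-c, a peptide encoded within the mitochondrial 12S ribosomal RNA gene, or a scrambled peptide. Members were taken by gene symbol, whatever their signal, which gave 14 probes among the 56605 gene probes of the array and 7 genes among the 22911 that RefSeq accessions could name. Each group held 2 one-colour Agilent arrays. The cells of both groups came from 60-week-old C57BL/6 littermates labelled male. Islets were handpicked, dispersed into single cells and exposed in culture to MOTS-c or to the scrambled peptide at 10 μM for 24 h, so the controls shared the age, the dispersal and the presence of a peptide. The study used 4 littermates for these arrays, with 2 samples in each group, and no untreated cells or young mice were among the 4 arrays. The comparison asks how the peptide changed gene expression in aged islet cells.

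Sirtuins are enzymes that take acetyl and other acyl groups off lysines and use up NAD in doing so, which ties their work to the energy state of the cell. Sirt1, Sirt6 and Sirt7 act mainly in the nucleus, Sirt2 mainly in the cytosol, and Sirt3, Sirt4 and Sirt5 in mitochondria. In β-cells, Sirt1 is known for repressing the uncoupling protein gene Ucp2 and so favouring insulin secretion, and Sirt4 for restraining glutamate dehydrogenase and with it the secretion that amino acids drive. Several members are also studied in aging. The arrays measure mRNA, and neither deacylase activity nor NAD was measured on them.

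Of the 14 sirtuin probes, 13 gave a signal well above background on all 4 arrays. The exception was the Sirt5 probe A_55_P2899223, designed on a predicted transcript, whose signal was between 1.09 and 1.63 times its background and which no array called well above it. No sirtuin probe showed a difference between the groups after adjustment over the 35087 probes tested (limma, smallest adjusted p among the sirtuins 0.612). The share of all probes with an adjusted p under 0.05 was 0%, and the smallest adjusted p of any probe was 0.474. Levels below are log2 signals after quantile normalization, a log2 difference of 1 being a 2-fold change, and they are not compared between probes because each probe binds its target differently.

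Some features of the arrays need to be known for reading the results below. MOTS-c replicate 3 stood apart from the other arrays, at 51 on a first principal component that carried 52.1% of the variance, against -5.03 for MOTS-c replicate 2, -11.6 for scrambled replicate 1 and -34.4 for scrambled replicate 2. The probe for Xist, which silences an X chromosome in female cells, was well above background on 4 of 4 arrays, and 7 probes for Y-linked genes were above it in 0 of 28 readings, which goes against the male label of all 4 samples. Of 13 endocrine marker genes, 10 were well above background on every array, but Ucn3, a marker of mature β-cells, was above it on none, and the glucose transporter gene Slc2a2 was close to background, at 1.85 and 2.3 times it in the scrambled arrays and 1.31 and 1.33 times it with MOTS-c. Its log2 difference was -1.33 without overlap (SE 0.14, limma adjusted p = 0.474). All 4 arrays lay on 1 slide with 1 scan time.

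Promoter sequences are shown for Sirt1, which had the largest difference among the followed probes, and for Sirt7, the only gene with a probe at an unadjusted p under 0.05. RefSeq start sites (GRCm38.p6) were listed for all 7 genes, 9 sites in all, and the 250 bases before each were searched on both strands for motifs of factors that are active in stress and nutrient responses. Capitals mark the motif matches. The Sirt1 stretch lies at chr10:63339036-63339165 on the minus strand and ends at the base before the start site. The Sirt7 stretch lies at chr11:120625015-120625114 on the minus strand and was shortened so that it stays clear of the neighbouring gene.
Sirt1: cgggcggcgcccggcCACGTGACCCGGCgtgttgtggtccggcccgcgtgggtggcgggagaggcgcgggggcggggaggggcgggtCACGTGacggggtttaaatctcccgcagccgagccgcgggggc
Sirt7: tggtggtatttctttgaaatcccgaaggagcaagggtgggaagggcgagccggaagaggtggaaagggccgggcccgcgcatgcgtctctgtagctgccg
The Sirt1 stretch held 2 matches to the E-box CACGTG, the motif of several helix-loop-helix factors, and 1 match to the antioxidant response element TGACNNNGC that overlapped the first of them. Among all 32851 promoter windows of 250 bases, 6.02% held that E-box and 10.2% that antioxidant response element. The E-box was matched at 1 of the 9 sirtuin start sites, that of Sirt1, and the antioxidant response element at 2, those of Sirt1 and Sirt3. The FOXO motif GTAAACA, present in 3.17% of all windows, was matched at 0 of the 9. The Sirt1 window was rich in G and C (79.2% of its bases) and the Sirt7 window was not (48.8%). A match describes the letters only.

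Among the nuclear members, Sirt1 deacetylates p53, FOXO factors and the coactivator PGC-1α. Its brighter probe, A_55_P2030428, read 11.43 and 11.09 in the scrambled arrays and 11.36 and 11.94 in the MOTS-c arrays. The groups overlapped, since MOTS-c replicate 2 lay below scrambled replicate 1, and the difference was set largely by MOTS-c replicate 3. The group means were 11.26 ± 0.24 for scrambled and 11.65 ± 0.41 for MOTS-c (SD, n = 2), a log2 difference of 0.39 (SE 0.25; 95% interval -0.27 to 1.05; limma adjusted p = 0.766). Without MOTS-c replicate 3 the difference was 0.10, and without MOTS-c replicate 2 it was 0.68. This was the largest followed value of the family, and 13.5% of all genes kept had a larger one in either direction.

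The second Sirt1 probe, A_55_P2598462, was dim, with 5.98 and 5.31 in the scrambled arrays and 6.21 and 5.96 in the MOTS-c arrays. Scrambled replicate 2 was the lowest array, as it was for the brighter probe, but MOTS-c replicate 3 fell just below scrambled replicate 1. The 2 probes of the gene therefore ordered the arrays differently. The difference was 0.44 (SE 0.26, limma adjusted p = 0.75), and it ran from 0.10 without scrambled replicate 2 to 0.77 without scrambled replicate 1. Both Sirt1 probes thus had a higher mean with MOTS-c, in each case within the spread of the arrays.

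Sirt7, which is tied to ribosomal RNA transcription and to deacetylation of histone H3 at gene promoters, was the member whose probes separated the groups most plainly. Probe A_55_P2045697 had the value 8.46 in both controls and 8.76 and 8.83 after MOTS-c. The treated arrays were the higher pair, with a gap of 0.299 between the nearest pair. The difference was 0.33 (SE 0.12; 95% interval 0.02 to 0.65), a 1.26-fold higher signal, with an unadjusted limma p of 0.0415 that did not hold over all probes (adjusted p = 0.612). Among all probes, 7.85% had an unadjusted p under 0.05, 3.03% being higher and 4.82% lower with MOTS-c. The p of this probe was above 0.05 with each array left out, while the difference stayed between 0.30 and 0.36.

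The brighter Sirt7 probe, A_51_P352264, read 13.07 and 13.13 in the scrambled arrays against 13.23 and 13.39 with MOTS-c. The groups did not overlap here either, with a gap of 0.098. The means were 13.10 ± 0.04 and 13.31 ± 0.12 (SD, n = 2), a log2 difference of 0.21 (SE 0.13; 95% interval -0.13 to 0.55; limma adjusted p = 0.762). Leaving out 1 array kept it between 0.12 and 0.29. Sirt7 was therefore higher on both MOTS-c arrays by both of its probes, 1.26-fold by the dimmer and 1.16-fold by the brighter.

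Sirt6 deacetylates histone H3 at telomeres and at glycolytic genes and takes part in DNA repair. Its brighter probe, A_55_P2072468, read 11.43 and 11.41 in the scrambled arrays and 11.31 and 11.07 with MOTS-c. The treated pair was the lower one, by a gap of 0.1, and replicate 3 was the lowest. The means were 11.42 ± 0.02 and 11.19 ± 0.17 (SD, n = 2), and the difference was -0.23 (SE 0.14; 95% interval -0.60 to 0.14; limma adjusted p = 0.756). The second probe, A_51_P416215, showed the same order of groups, with 7.0 and 7.24 against 6.94 and 6.90, and a difference of -0.20 (SE 0.14, limma adjusted p = 0.786). Here the gap was 0.058, and the difference was -0.08 without scrambled replicate 2 and -0.07 with another background correction (normexp). In the values reported, Sirt6 and Sirt7 lay on opposite sides of the controls, each by both of its probes.

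**Figure D1:**
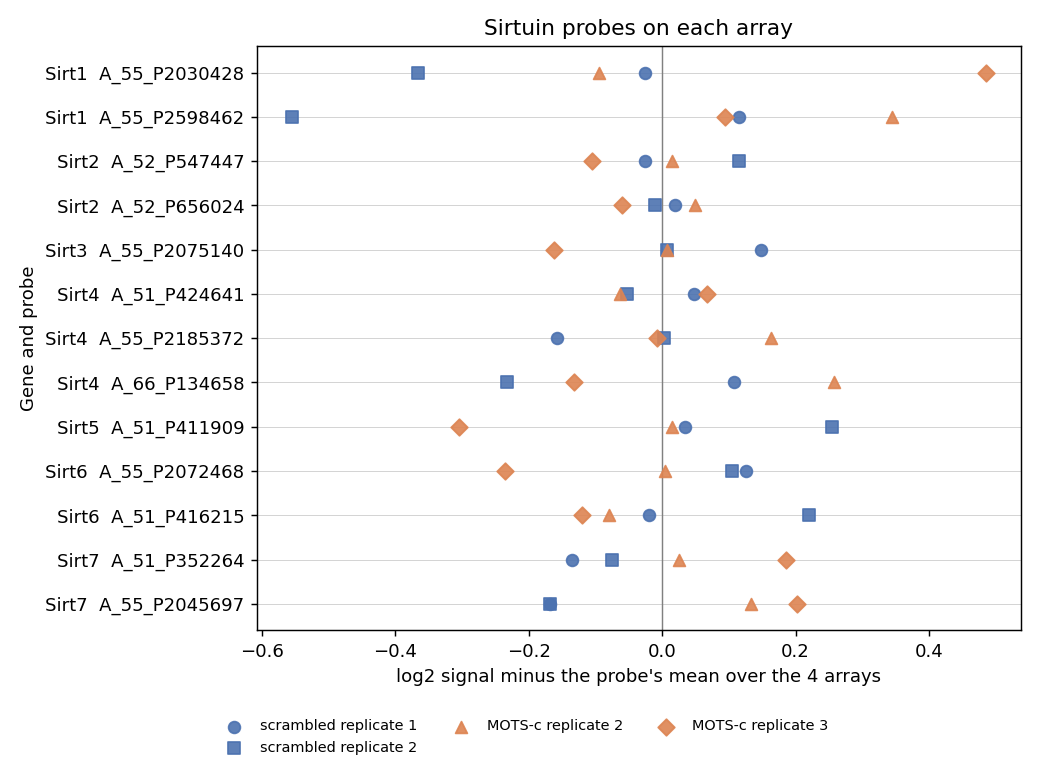
Log2 signal of each of the 13 sirtuin probes kept, on each of the 4 arrays, less the probe's own mean over the arrays (blue, scrambled; orange, MOTS-c; 1 marker shape per array; the scrambled markers of Sirt7 A_55_P2045697 coincide). Both Sirt7 probes have the orange markers on the right and both Sirt6 probes have them on the left, while MOTS-c replicate 3, the diamond, is the highest or lowest array for 10 of the 13 probes.

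Sirt2, the mainly cytosolic member, deacetylates α-tubulin and FOXO factors. Its brighter probe, A_52_P547447, read 12.05 and 12.19 in the scrambled arrays and 12.09 and 11.97 with MOTS-c, so the groups overlapped. The difference was -0.09 (SE 0.13; 95% interval -0.44 to 0.26; limma adjusted p = 0.905). The second probe, A_52_P656024, read between 9.98 and 10.09 on the 4 arrays and differed by -0.01 (SE 0.12; 95% interval -0.33 to 0.31). Both Sirt2 intervals lay within a 1.5-fold change in either direction.

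Of the mitochondrial members, Sirt3 is the main deacetylase of the matrix and acts on enzymes of oxidation and antioxidant defence. Its single probe, A_55_P2075140, read 12.15 and 12.01 in the scrambled arrays and 12.01 and 11.84 with MOTS-c. The arrays were counted as not overlapping, but the nearest pair, scrambled replicate 2 and MOTS-c replicate 2, lay only 0.003 apart. The means were 12.08 ± 0.10 and 11.92 ± 0.12 (SD, n = 2), and the difference was -0.16 (SE 0.14; 95% interval -0.52 to 0.20; limma adjusted p = 0.83). It ran from -0.24 to -0.07 with 1 array left out.

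Sirt4 acts in the matrix on glutamate dehydrogenase and on other enzymes of amino acid and fatty acid use. Its brightest probe, A_51_P424641, read 9.05 and 8.95 in the scrambled arrays and 8.94 and 9.07 with MOTS-c, a difference of 0.00 (SE 0.13; 95% interval -0.34 to 0.35; limma adjusted p = 0.997). Each group held a high and a low array. The 2 dimmer probes had differences of 0.16 (A_55_P2185372, SE 0.14) and 0.12 (A_66_P134658, SE 0.21), with overlapping groups in each. Among all genes kept, 97.8% had a larger difference in either direction than the brightest Sirt4 probe.

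Sirt5 removes succinyl, malonyl and glutaryl groups and acts on urea cycle enzymes. Probe A_51_P411909 read 10.09 and 10.31 in the scrambled arrays against 10.07 and 9.75 with MOTS-c. The groups did not overlap, with a gap of 0.02 between scrambled replicate 1 and MOTS-c replicate 2, and MOTS-c replicate 3 was the low array. The means were 10.20 ± 0.16 and 9.91 ± 0.22 (SD, n = 2), a difference of -0.29 (SE 0.17; 95% interval -0.74 to 0.16; limma adjusted p = 0.75), the lowest of the family. Without MOTS-c replicate 3 it was -0.13, and without MOTS-c replicate 2 it was -0.44.

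**Figure D2:**
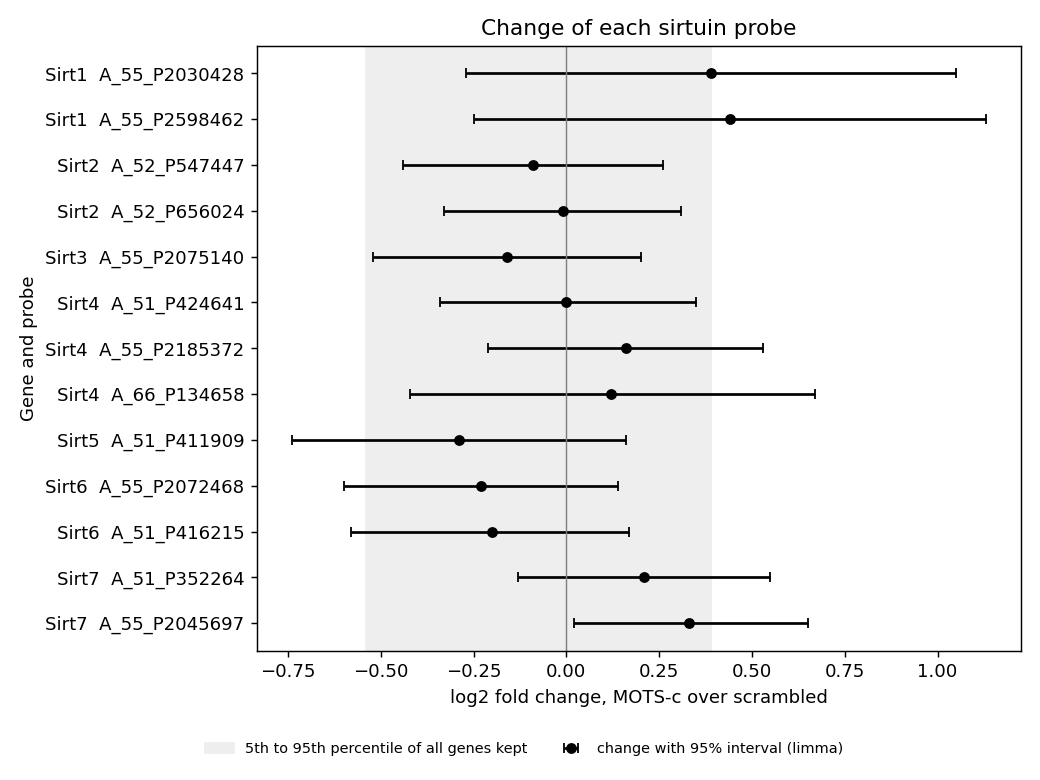
Log2 fold change of each sirtuin probe, MOTS-c over scrambled, with its 95% interval from limma (2 arrays per group), over a grey band from the 5th to the 95th percentile of the changes of all genes kept (-0.54 to 0.39). The interval of Sirt7 A_55_P2045697 (0.02 to 0.65) is the only one that leaves out 0, and the widest are those of the Sirt1 probes.

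Over the 13 probes kept, the groups did not overlap in 6 (46.2%), against 38% of all probes. They were higher with MOTS-c in 2 (15.4%), against 19.4% of all probes, and lower in 4 (30.8%), against 18.6%. This split changed with the scaling. It was even with each array shifted by its 75th percentile, and more probes were higher than lower with normexp. The shares of all probes given here belong to quantile normalization, and no such share was set beside the other scalings. The change of the split can therefore not be told apart from a shift over all probes. An unadjusted p under 0.05 was found for 1 of the 13 probes (7.69%), beside the 7.85% of all probes given above. These counts rest on few probes, and the probes of 1 gene are not independent. Followed through the brightest probe of each gene, 0 of the 7 genes had an unadjusted limma p under 0.05, against 8.61% of all genes (2.82% higher and 5.79% lower with MOTS-c), and 0 had an adjusted one, as did 0% of all genes. The groups did not overlap in 4 of the 7 genes (57.1%), against 42.5% of all genes. The 1 that was higher with MOTS-c, Sirt7, stands against 19.8% of all genes, and the 3 that were lower, Sirt3, Sirt5 and Sirt6, against 22.7%. The median difference of the 7 genes was -0.09 and that of all genes was 0.

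The precision set what could be seen. The 95% interval lay within a 2-fold change either way for 11 of the 13 probes, the exceptions being both Sirt1 probes, and within a 1.5-fold change for 7. The difference was smaller than its standard error for 4 probes and smaller than 2 standard errors for 12. With 2 arrays in each group, an exact two-sided permutation test of a single gene cannot give a p below 0.33.

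Which array was left out mattered more for some members than for others. MOTS-c replicate 3 was the highest or the lowest array for 10 of the 13 sirtuin probes (76.9%), and for 61.8% of all probes. Without it, the difference was 0.10 for the brighter Sirt1 probe, -0.13 for Sirt5 and -0.11 for the brighter Sirt6 probe, while that of the second Sirt7 probe was 0.30. The signs of Sirt1, Sirt3, Sirt5, Sirt6 and Sirt7 were the same with each of the 4 arrays left out. Those of the second Sirt2 probe and of 2 Sirt4 probes were not. For Sirt3, Sirt5, Sirt6 and Sirt7 the constant sign follows from groups that did not overlap, so it is no separate check. With overlapping groups, both Sirt1 probes, the brighter Sirt2 probe and the remaining Sirt4 probe also kept their sign.

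**Figure D3:**
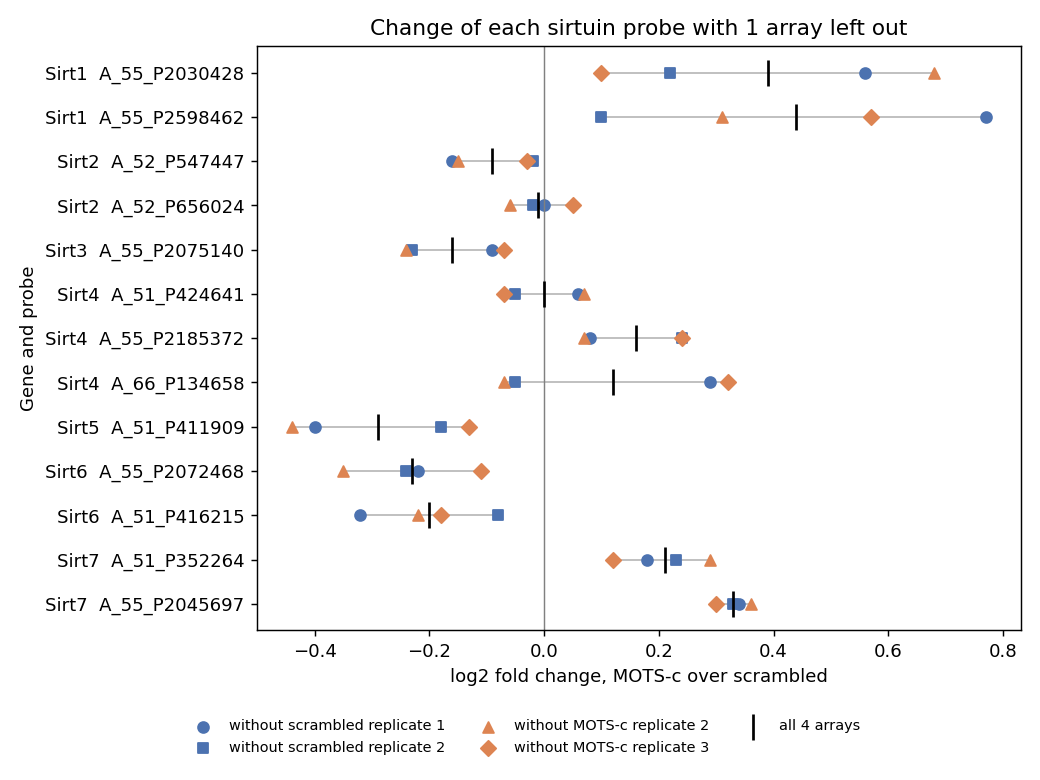
Log2 fold change of each sirtuin probe, MOTS-c over scrambled, with all 4 arrays (black bar) and with each array left out in turn (marker shapes as named, blue for a scrambled and orange for a MOTS-c array left out). The Sirt1 values spread from 0.10 to 0.77, those of Sirt7 A_55_P2045697 lie between 0.30 and 0.36, and 3 probes, of Sirt2 and Sirt4, have markers on both sides of 0.

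Sirtuins depend on the supply of NAD. Of 12 genes of NAD synthesis, 10 were kept. Of these, 0 had an unadjusted limma p under 0.05 in either direction, against 8.61% of all genes. The groups did not overlap in 5 (50%), 3 higher and 2 lower with MOTS-c, against 42.5% of all genes (19.8% higher, 22.7% lower). The median difference of the 10 genes was 0.03. Nampt, the rate-limiting enzyme of NAD salvage, had the highest value: it read 11.12 and 10.86 in the scrambled arrays and 11.28 and 11.41 with MOTS-c. Both MOTS-c arrays were above both scrambled ones, by 0.36 on the log2 scale (SE 0.15, limma adjusted p = 0.682). Without scrambled replicate 2 it was 0.23. The unadjusted limma p was 0.0703 in the values reported and 0.0762 with the 75th percentile shift. It fell under 0.05 with normexp (0.019) and with an intensity trend (0.0338). The lowest was Nmnat2, an adenylyltransferase of the cytosol and Golgi, at -0.40 (SE 0.27, limma adjusted p = 0.783) with overlapping groups, and it ran from -0.72 without MOTS-c replicate 2 to -0.08 without MOTS-c replicate 3. The second Nmnat2 probe differed by only -0.11 (SE 0.23), also with overlapping groups.

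Other enzymes draw on the same NAD. Of 9 such genes, 8 were kept, and 1, Cd38, had an unadjusted p under 0.05, against 8.61% of all genes. Cd38, a glycohydrolase that breaks NAD down, read 8.44 and 8.0 in the scrambled arrays and 7.71 and 6.82 with MOTS-c. There was no overlap of the groups, and the 2 MOTS-c arrays were themselves far apart. The difference was -0.95 (SE 0.35; limma unadjusted p = 0.0429, adjusted p = 0.615), and it ran from -1.39 without MOTS-c replicate 2 to -0.52 without MOTS-c replicate 3. The unadjusted p was 0.193 with the methods' t-test, and limma with no filter on dim probes gave 0.106. Parp1, the poly(ADP-ribose) polymerase that is activated by DNA breaks, was the highest of the list, at 12.07 and 12.07 against 12.18 and 12.26, a difference of 0.15 (SE 0.12, limma adjusted p = 0.812). The groups did not overlap in 5 of the 8 genes (62.5%), against 42.5% of all genes, and the median was 0.05.

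Among 24 partners of the nuclear and cytosolic sirtuins, 22 were kept. Of these, 0 had an unadjusted limma p under 0.05, against 8.61% of all genes. The groups did not overlap in 8 (36.4%), 4 in each direction, against 42.5% of all genes, and the median was -0.02. Ppargc1a, which encodes the Sirt1 target PGC-1α, was not well above background on any array and has no fold here. Ucp2, the uncoupling protein gene repressed by Sirt1, read 9.31 and 9.54 in the scrambled arrays and 9.42 and 9.46 with MOTS-c, a difference of 0.01 (SE 0.14, limma adjusted p = 0.995). Foxo1, a Sirt1 target that governs β-cell identity, differed by 0.11 (SE 0.12, limma adjusted p = 0.861), and Trp53, the gene of p53, by -0.18 (SE 0.17, limma adjusted p = 0.841). The highest of the list was Acss2, the cytosolic acetyl-CoA synthetase that Sirt1 deacetylates, at 11.05 and 11.03 against 11.22 and 11.45, a difference of 0.29 (SE 0.14, limma adjusted p = 0.70) that was 0.18 without MOTS-c replicate 3 and 0.41 without MOTS-c replicate 2. The lowest was the dim Foxo4, at -0.23.

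Of 24 substrates of the mitochondrial sirtuins, 22 were kept, and 1 was higher and 1 lower with MOTS-c at an unadjusted p under 0.05. Among all genes, 2.82% were higher and 5.79% lower at that threshold. Acss1, the mitochondrial acetyl-CoA synthetase that Sirt3 deacetylates, read 7.40 and 7.44 in the scrambled arrays and 6.62 and 6.31 with MOTS-c. This gap was wide beside the spread within each group, and the difference was -0.95 (SE 0.15; limma unadjusted p = 0.00214, adjusted p = 0.474), between -1.1 and -0.81 with 1 array left out and -0.57 with normexp. The unadjusted p of Acss1 stayed under 0.05 in each of the 4 fits with 1 array left out. Acss1 and its cytosolic counterpart Acss2 therefore had opposite signs.

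The best known targets of Sirt3 and Sirt4 in this list had smaller differences than Acss1. Idh2, the NADP-dependent isocitrate dehydrogenase activated by Sirt3, read 15.68 and 15.57 in the scrambled arrays and 15.28 and 15.51 with MOTS-c, lower by both of its probes, at -0.23 (SE 0.14, limma adjusted p = 0.76) for the brighter, which was -0.12 without MOTS-c replicate 2 and -0.35 without MOTS-c replicate 3. Glud1, the glutamate dehydrogenase that Sirt4 restrains, read 13.66 and 13.61 against 13.47 and 13.49, a difference of -0.15 (SE 0.12, limma adjusted p = 0.804), while its second probe differed by -0.04 with overlapping groups. The unadjusted limma p was 0.254 for the brighter Glud1 probe and 0.174 for the brighter Idh2 probe. For Glud1 it was 0.0309 with the methods' t-test but 0.113 with limma and an intensity trend. For Idh2 it was 0.0331 with limma and an intensity trend but 0.212 with the methods' t-test. Sod2, the superoxide dismutase deacetylated by Sirt3, lay between 13.17 and 13.21 on the 4 arrays, with a difference of 0.02 (SE 0.12). No overlap of the groups was found for 11 of the 22 substrates kept (50%), against 42.5% of all genes, and the median was 0.04.

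**Figure D4:**
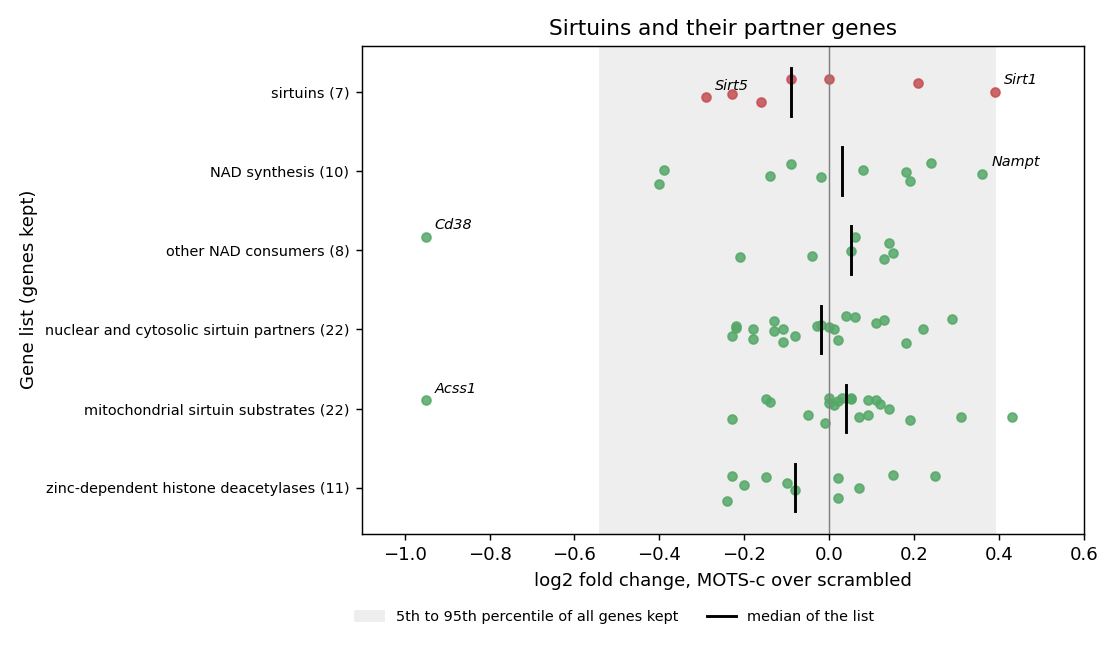
Log2 fold change, MOTS-c over scrambled, of every kept gene of the sirtuin family (red) and of the lists around it (green), with the median of each list (black bar) over the 5th to 95th percentile of all genes kept (grey). The list medians lie between -0.09 and 0.05, and Cd38 and Acss1, both at -0.95, are the genes farthest from 0.

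Markers of other cell types of the pancreas were read beside the sirtuins. Of 8 acinar genes 4 passed the filter, and their summed normalized signal was 3660 to 4010 in the scrambled arrays and 2090 to 2590 with MOTS-c, without overlap. Nearly all of that sum was 1 elastase gene, Cela1, at 11.77 and 11.90 against 11.23 and 10.92 (difference -0.76, limma adjusted p = 0.499). Ctrb1 was higher on both MOTS-c arrays (0.33), and Cel and Cela2a overlapped. Of 7 mesenchymal genes 3 were kept, and their sum was 315 to 380 against 240 to 307. Of these, Pdgfra alone separated the groups (-1.05, limma adjusted p = 0.567), while Col1a2 and Thy1 overlapped. The genes kept were above background on all 4 arrays. The defining markers Cpa1, Cpb1, Pnlip and Amy2a5 of the first and Col1a1, Col3a1, Pdgfrb and Dcn of the second did not pass the filter. The sums for duct (6 genes, 2 above background), endothelial (6 genes, 3 above) and leukocyte markers (8 genes, 4 above) overlapped between the groups. Among the endothelial genes kept, Esam was lower without overlap (-0.43, limma adjusted p = 0.578), while Pecam1 and Plvap overlapped. The endocrine sum was 1290000 to 1370000 against 1280000 to 1290000. Nearly all of it was Ins1, Ins2, Chga, Sst and Iapp, so it tells little about dimmer markers such as Pdx1. Sst read 17.72 on scrambled replicate 2 and 17.17 on scrambled replicate 1. The part of these markers in the sirtuin values was not tested. In cells of mixed type, fewer cells of a type and less RNA in each cannot be told apart.

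For the sirtuins other than Sirt3, the gene whose centred log2 values came closest over the 4 arrays was sought among 14780 genes, as a description with only 4 points to match. The smallest distances (Euclidean, log2 scale) were 0.023 for Rapgef6 beside Sirt1, 0.00707 for Fam120aos beside Sirt2 and 0.0181 for Psmb6 beside Sirt4. They were 0.00953 for Gap43 beside Sirt5, 0.0154 for Lrp1 beside Sirt6 and 0.0211 for Endov beside Sirt7.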

How the data were processed

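RNA of 4 samples was labelled with Cy3 and hybridised to one-colour Agilent arrays. The deposited spot intensity is the processed signal of Feature Extraction 11.0.1.1, background-subtracted by that software, with its flags (other values) kept as the authors deposited them. The intensities of the deposited series table equal the scanner values within rounding. No saturated gene spots were found, and between 61.6% and 65% of spots per array were well above background. The number of arrays limits the precision.

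Outlier spots (96 to 131 per array) and 3671 control spots were left out, spots of a probe averaged on the log2 scale, 35087 of 56605 probes kept for a signal above background on 2 or more of the 4 arrays, and the arrays quantile normalized. Groups were compared with limma 3.58.1 (R 4.3.3), with Benjamini-Hochberg adjustment over all kept probes, a threshold of 0.05, 2 residual and 2.64 prior degrees of freedom. A gene was followed through its brightest kept probe. RefSeq accessions gave 32994 probes a symbol through the GRCm38.p6 gene table. The build of the array design differs, so no probe position is given. The scripts were tested on simulated data.

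The members and lists were chosen with earlier results of these data known. Named genes were every sirtuin probe, list genes with an unadjusted p under 0.05 and groups without overlap, otherwise the lowest and highest of a list, and 10 genes known for links to sirtuins in islets. Of the genes these rules and the search for like patterns gave, some are not reported here. Groups and replicate numbers came from the labels, which do not say whether each sample was 1 mouse, so p-values measure the spread between these samples. Alternatives were a shift by the 75th percentile, normexp (offset 50, on the median signals the files hold), the series table, other filters, a mean over probes, an intensity trend, the methods' t-test and each array left out.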

Additional observations from a re-analysis of the deposited data

How the results depend on the processing

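The count of sirtuin probes with an unadjusted p under 0.05 was 1 in the values reported. It was 0 with the 75th percentile shift, with an intensity trend and with the mean over probes, and 2 with normexp. Among all 35087 probes, the same count was 2755 in the values reported and 2693 with the 75th percentile shift. It was 2945 with an intensity trend and 3112 with normexp, and 2214 of 27734 values with the mean over probes. Without MOTS-c replicate 2 the difference of Sirt1 A_55_P2030428 was 0.68, and without scrambled replicate 1 that of Sirt1 A_55_P2598462 was 0.77. The count with an adjusted p under 0.05 was 0 under every alternative run, the smallest lying between 0.347 and 1. The methods' t-test gave 2312 probes of the whole array an unadjusted p under 0.05, and 1, not a sirtuin, an adjusted one, against 2755 and 0 with limma. The second Sirt2 probe turned to 0.04 with normexp and ran from -0.06 to 0.05 with 1 array left out, and the Sirt4 probes A_51_P424641 and A_66_P134658 ran from -0.07 to 0.07 and from -0.07 to 0.32. Among partner genes, Foxo4 ran from -0.82 to 0.35, Trp53 from -0.36 to 0.01 and Ucp2 from -0.11 to 0.12 with 1 array left out. With the 75th percentile shift, Ucp2 came to 0 and Sod2 to -0.01. The list medians ran from -0.08 to 0.13 for NAD synthesis (0.03 as reported), from -0.02 to 0.11 for other NAD consumers (0.05) and from -0.14 to 0.01 for the zinc-dependent deacetylases (-0.08, and 0.01 with normexp) with 1 array left out. The cause of these shifts was not tested. No paired analysis was possible because the groups share only 1 replicate number, and the slide could not be a block with all arrays on 1 slide. Where an array is left out, the lone array of its group is assumed to vary like the other group.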

Other observations

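The zinc-dependent histone deacetylases remove acetyl groups without NAD and were read as the other deacetylase family. All 11 genes were kept, and 0 had an unadjusted limma p under 0.05, against 8.61% of all genes. The groups did not overlap in 6 (54.5%), 2 higher and 4 lower with MOTS-c, against 42.5% of all genes (19.8% higher, 22.7% lower). The median difference of the 11 genes was -0.08, beside -0.09 for the sirtuins. The lowest was Hdac7, a class IIa member, which read 12.44 and 12.57 in the scrambled arrays and 12.40 and 12.12 with MOTS-c, a difference of -0.24 (SE 0.15, limma adjusted p = 0.766) that ran from -0.38 to -0.10 with 1 array left out. The highest was the dim Hdac9, at 0.25, which ran from 0.08 to 0.41 with 1 array left out and was 0.01 with normexp. Its probe was well above background on only 2 arrays, and its groups lay 0.005 apart. The other Hdac9 probes did not pass the filter.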
